A study of Mus musculus with 4 samples.

Results

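Interferon-stimulated genes were followed across 4 arrays of B220+ mouse bone marrow cells. A list of 36 symbols was matched by name to the probe table, ignoring case. It found 33 genes on 52 probe rows, out of 18138 genes on 25697 probe rows in all, and Isg15, Xaf1 and Cmpk2 matched no row by that name. The cells came from C57BL6/J mice, were carriers of the B-lineage marker B220, and were sorted by CD43. The groups were Btg1;Btg2 double-knockout (dKO) B220+ CD43- cells, wild-type (WT) B220+ CD43- cells, dKO B220+ CD43+ cells and WT B220+ CD43+ cells, with 1 array each. The labels equate CD43+ with Hardy fractions A to C, the earliest B-lineage stages, and CD43- with fractions D to F, the later ones. Neither the age or sex of the mice, nor how many were used, nor whether 1 animal gave both fractions is given in the sources used here, and no group received interferon or any other agent according to the labels. Btg1 and Btg2 encode related antiproliferative proteins that recruit the mRNA deadenylase complex CCR4-NOT.

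Type I interferons bind the receptor made of IFNAR1 and IFNAR2, and type II interferon binds IFNGR1 and IFNGR2. Kinases of the JAK family then phosphorylate STAT proteins, which enter the nucleus and act through interferon-stimulated response elements (ISREs) and gamma-activated sites (GASs) in the DNA. The genes switched on encode antiviral effectors, nucleic acid sensors, GTPases that attack intracellular pathogens, and proteins that amplify or end the response. Many of them are also transcribed at a low, tonic level in lymphoid cells without infection.

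All values below are mean bead signals of 1 probe per gene, or differences between log2 values after background correction and quantile normalization. A probe was called detected at a detection p under 0.01. The dKO arrays were brighter than the WT arrays before normalization, with mean signals of 648.1 and 662.1 (dKO CD43- and CD43+) against 555.2 and 550.7 (WT CD43- and CD43+). The printed signals also still include background. Ratios of the printed signals therefore differ from the normalized folds. For bright genes they tend to run higher for dKO, and for dim genes they can be smaller than the normalized fold. The bead standard error (bead SE) of a difference covers the measurement on the chip and nothing else. Each group has 1 array, so group differences lack replicates and were counted against a 2-fold threshold without a test. The only test was a limma model of genotype plus fraction on all 4 arrays, which leaves 1 residual degree of freedom, with Benjamini-Hochberg adjustment over 9058 genes. In it the fractions stand in for replicates of the genotype contrast and the genotypes for replicates of the fraction contrast. Shared animals between fractions would make its p-values for genotype too small. The B-lineage markers were detected for 12 of 12 measured genes in both CD43- samples, and for 8 (dKO) and 10 (WT) of 12 in the CD43+ samples. Btg1 was 3.28-fold lower in dKO CD43+ cells and 2.72-fold lower in dKO CD43- cells than in WT, and Btg2 was not detected on any array.

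Of the 33 measured members, 24 were detected on all 4 arrays, with signals from 197.2 to 11817.4. A further 3 members were detected on some arrays only: Mx1 and Oas1a in WT CD43+ cells alone, and Oas2 in both CD43- samples. The other 6 were not detected on any array. These were the antiviral effectors Ifit1 and Ifi44, the RNA sensor gene Ifih1 (MDA5), the synthase gene Oas3, the GTPase gene Iigp1 and Rtp4, with signals from 122.9 to 174.6. In all, 27 of the 33 members were detected on at least 1 array, against 9058 of the 18138 genes measured. Of 5 measured type I interferon genes, Ifnb1, Ifna2, Ifna4 and Ifna5 were not detected on any array. The fifth, Ifna1, was detected on the dKO CD43+ array alone, with a signal of 183.1 in dKO CD43+ and 158.0 in WT CD43+ cells. Both signals were near background. The lower bound of the log2 difference, 0.26 (1.2-fold), was smaller than the bead SE of 0.349, so no genotype difference is read from it.

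Which array gave a member its highest value differed between genes, as the plot of centred values shows. Among the 27 members detected on at least 1 array, the highest value lay on the dKO CD43+ array for 12, the dKO CD43- array for 7, the WT CD43+ array for 4 and the WT CD43- array for 4. Over all 9058 such genes the shares were 23.8% (dKO CD43+), 25.8% (dKO CD43-), 21.0% (WT CD43+) and 29.3% (WT CD43-), and 44.4% of the members had their highest value on the dKO CD43+ array.

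**Figure D1:**
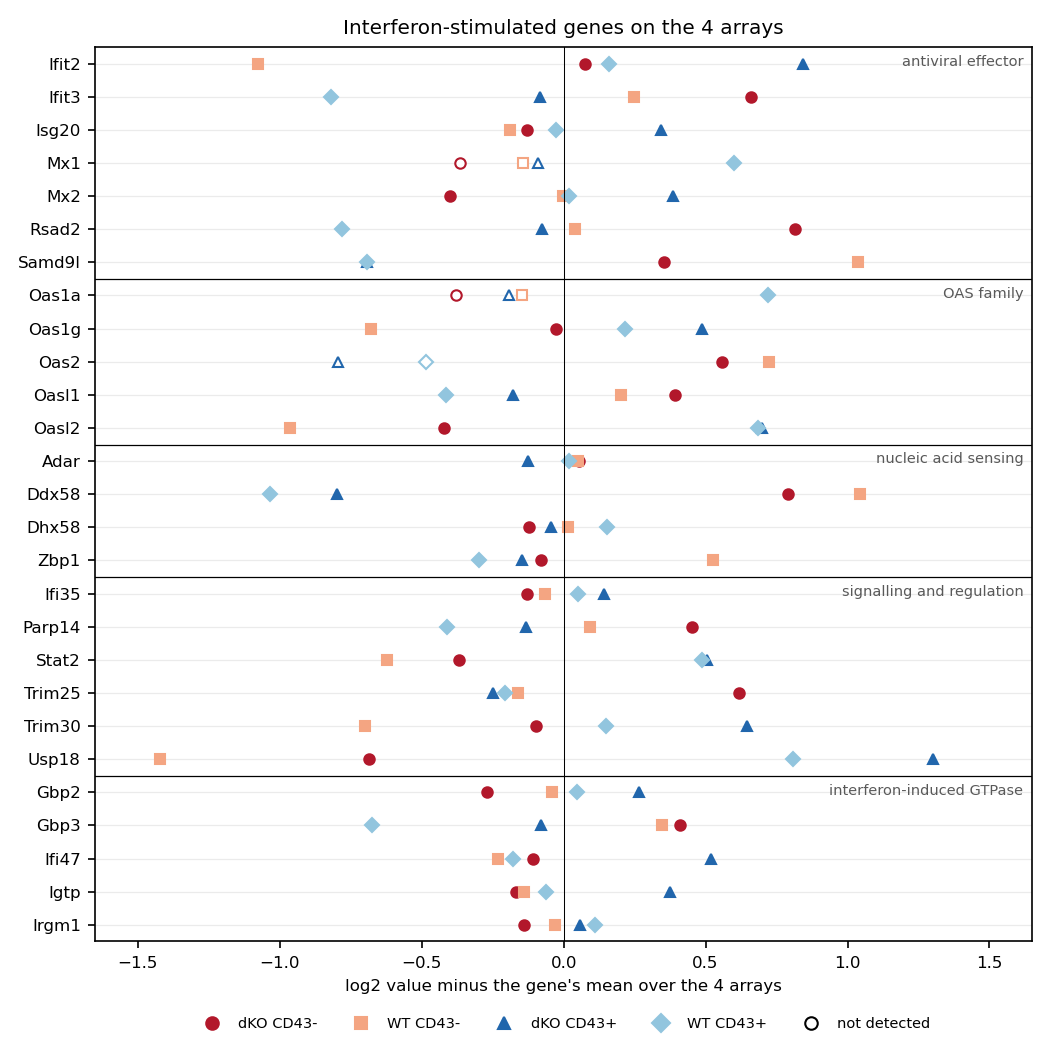
Normalized log2 value of each detected interferon-stimulated gene on each of the 4 arrays, minus that gene's mean over the arrays (x axis, log2 units; rows are genes in 5 role groups; open symbols were not detected). Usp18, Oasl2 and Stat2 have both CD43+ arrays on the right, and Ddx58 and Samd9l have both CD43- arrays on the right.

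The first comparison asked whether loss of BTG1 and BTG2 went with a different level of these genes in CD43+ cells. Differences were small. None of 26 tested members was 2-fold higher or 2-fold lower in dKO CD43+ cells, against 1.72% (higher) and 2.03% (lower) of 8720 genes tested. That count leaves out Cmpk2, whose row, under the older name Tyki, was not matched by name and was 2.05-fold higher in dKO CD43+ cells. Differences above 0 were found for 19 of 26 members and for 54.2% of all genes, and the median log2 difference of the members was 0.24, against 0.04 over all genes.

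Of the antiviral effectors, 5 of 7 tested in CD43+ cells were above 0, with a median of 0.37. Ifit3, a gene of the IFIT family, had a signal of 324.3 in dKO CD43+ cells and 218.2 in WT CD43+ cells. The log2 difference was 0.74 (bead SE 0.144). In the authors' deposited RMA values that difference was 0.25, and the Ifit3 difference in CD43- cells was 0.13 there, against 0.41 after background correction and quantile normalization. Rsad2, encoding viperin, which makes a chain-terminating nucleotide, had signals of 429.0 (dKO) and 269.2 (WT), a difference of 0.70 (bead SE 0.122). Ifit2, encoding an RNA-binding tetratricopeptide protein of the IFIT family, had signals of 643.8 (dKO) and 363.8 (WT), a difference of 0.68 (bead SE 0.137). All 3 differences exceeded 4 bead SEs and stayed below 2-fold. Isg20, an exonuclease gene, and Mx2, a dynamin-like GTPase gene, both lay at 0.37, and Samd9l, which encodes a restrictor of virus replication and cell growth, at 0.00. Mx1, which carries an inactivating deletion in many laboratory mouse strains, was detected in WT only and was at least 1.17-fold lower in dKO. In CD43- cells 4 of 6 tested effectors were above 0, with a median of 0.24. The 2 below 0 were Mx2, at -0.40 (bead SE 0.152), and Samd9l, at -0.68.

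Interferon-induced GTPases, most of them strongly induced by type II interferon, had a median of 0.44 over 5 tested genes in CD43+ cells, with 4 of 5 above 0. Ifi47, an immunity-related GTPase gene, had a signal of 2939.3 in dKO CD43+ cells and 1420.5 in WT CD43+ cells, which gave 0.70 (bead SE 0.076). Of the other GTPase genes, Gbp3, encoding a guanylate-binding protein, lay at 0.60, Igtp at 0.44 and Gbp2 at 0.22, while Irgm1, a regulator of autophagy, lay at -0.05 on its brightest probe and at 0.50 on its other probe detected on all 4 arrays. The same 5 genes had a median of -0.03 in CD43- cells, where Ifi47 was at 0.13 (signals of 1910.2 in dKO and 1404.7 in WT), Gbp3 at 0.07, Igtp at -0.03, Irgm1 at -0.11 and Gbp2 at -0.23. Whether the GTPase differences of the 2 fractions differ was not tested.

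In CD43- cells 1 of 25 tested members was at least 2-fold higher in dKO, where 3.66% of 8033 tested genes were, and 0 were at least 2-fold lower, against 2.56% of all genes. That member was Ifit2, with signals of 403.4 in dKO CD43- and 221.3 in WT CD43- cells. It was 2.23-fold higher (log2 1.15, bead SE 0.167), and its other probe gave a difference of 1.64. Both probes of Ifit2 were also higher in dKO CD43+ cells, the second by 0.56. Differences above 0 were found for 15 of 25 members, against 50.5% of all genes, and the median was 0.07, against 0.01 over all genes.

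Beside Ifit2, the members with the largest positive differences in CD43- cells were Rsad2 and Trim25, both at 0.78, and Usp18 at 0.73. Rsad2 had signals of 642.3 in dKO CD43- and 358.9 in WT CD43- cells. Trim25, encoding a ubiquitin ligase of RIG-I signalling, lay at -0.04 in CD43+ cells. Usp18, which encodes the protease that removes ISG15 from proteins and restrains IFNAR2, had signals of 593.6 in dKO CD43- and 344.1 in WT CD43- cells. Its dimmer probe gave 0.10 in CD43- and -0.26 in CD43+ cells, so its 2 probes disagree on the genotype difference. In the authors' deposited RMA values the Usp18 differences were 0.46 in CD43- cells and 0.11 in CD43+ cells.

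Signalling and regulatory genes had medians of 0.48 in CD43- cells and 0.19 in CD43+ cells, each with 5 of 6 tested genes above 0. Trim30, encoding a ubiquitin ligase that restrains Toll-like receptor signalling, had signals of 1856.6 in dKO CD43- and 1015.7 in WT CD43- cells, a difference of 0.60 (bead SE 0.096). In CD43+ cells its signals were 3108.5 (dKO) and 1708.1 (WT), a difference of 0.50 (bead SE 0.094), so Trim30 was higher in dKO in both fractions by more than 5 bead SEs. Parp14, an ADP-ribosyltransferase gene, lay at 0.36 in CD43- and 0.28 in CD43+ cells, Stat2 at 0.25 and 0.02, and Ifi35, which encodes a leucine zipper protein, at -0.07 and 0.09.

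The OAS family, whose active members make the messenger that activates RNase L, had 3 of 4 tested genes above 0 in each fraction, with medians of 0.37 in CD43- and 0.12 in CD43+ cells. Oas1g lay at 0.65 in CD43- and 0.27 in CD43+ cells, and its other detected probe at 0.23 and 0.36. Oasl1 lay at 0.19 in CD43- and 0.24 in CD43+ cells, and Oas2 at -0.17 in CD43- cells. Oas1a was detected in WT CD43+ cells alone and was at least 1.09-fold lower in dKO CD43+ cells. Oasl2 lay at 0.54 in CD43- and 0.01 in CD43+ cells, but at -0.29 and -0.16 in the authors' deposited RMA values, so its sign depends on the processing.

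Of the nucleic acid sensing genes, 3 of 4 tested in CD43- cells were below 0, with a median of -0.20. Zbp1, encoding a sensor of Z-form nucleic acid, lay at -0.61 (bead SE 0.186), Ddx58, encoding RIG-I, at -0.26, and Dhx58, encoding the related protein LGP2, at -0.14. In CD43+ cells 2 of 4 were above 0, with Ddx58 at 0.24, Zbp1 at 0.15, Adar at -0.15 and Dhx58 at -0.20. The other Adar probes gave 0.61 and 0.76 in CD43+ cells, so that count holds for the brightest probe of each gene. Samd9l was the lowest member in CD43- cells, with signals of 5982.2 in dKO and 7821.4 in WT and a difference of -0.68 (bead SE 0.061). Adar, which encodes the RNA-editing enzyme ADAR1, lay at 0.01 on its brightest probe, and its other probes gave 0.70 and 0.55 there. The 3 Adar probes therefore disagree on a genotype difference.

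**Figure D2:**
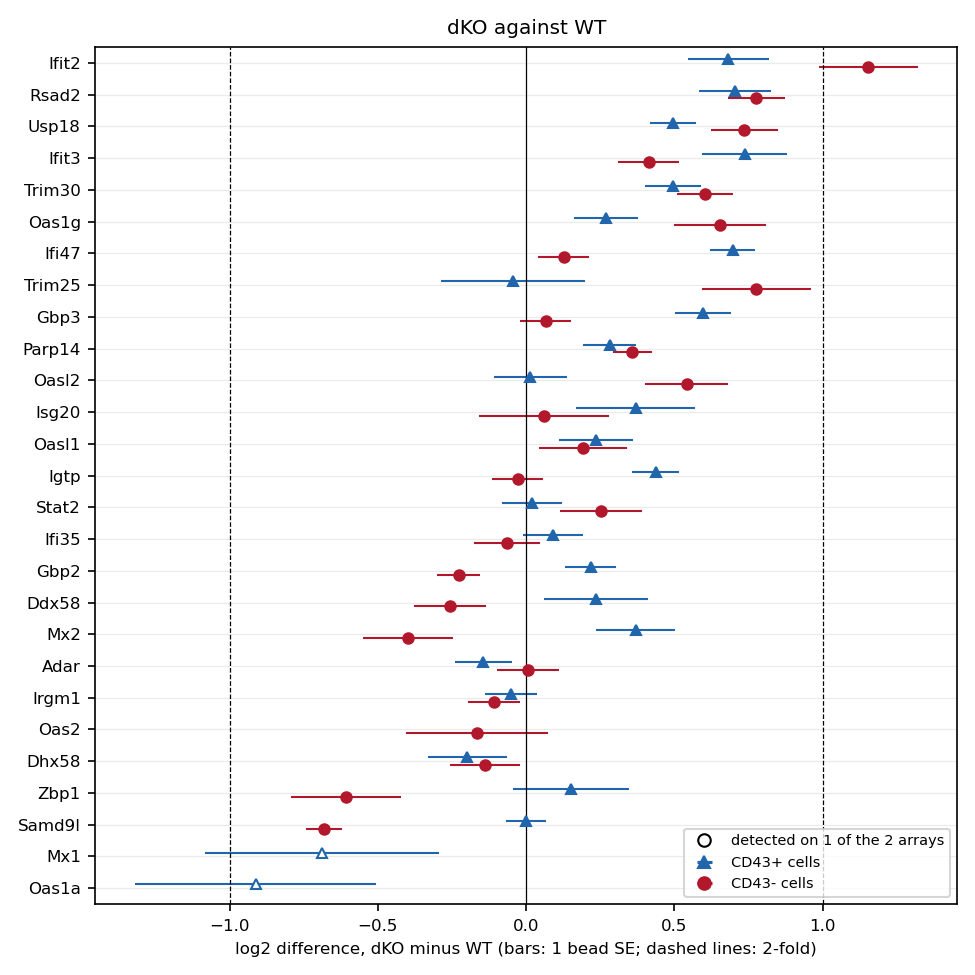
Log2 difference of each tested member between dKO and WT (x axis) in CD43+ cells (triangles) and CD43- cells (circles), with bars of 1 bead SE and dashed lines at 2-fold. Only Ifit2 in CD43- cells lies past a dashed line, and Rsad2, Usp18, Ifit3 and Trim30 lie above 0 in both fractions. Cmpk2, not matched by name, is not plotted.

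Across both fractions, 13 of 24 members tested in both had differences above 0 in each, against 36.3% of 7695 genes, and 2 of 24 had differences below 0 in each (Dhx58 and Irgm1), against 31.4%. The fractions share no array, but all 4 arrays were normalized together and the fractions may share animals. They are therefore not independent repeats. The 13 were Ifit2, Ifit3, Isg20, Oas1g, Oasl1, Oasl2, Usp18, Rsad2, Ifi47, Stat2, Gbp3, Parp14 and Trim30. For Stat2 and Oasl2 the CD43+ difference was within 0.02 of 0, and several of these signs depend on the probe or the processing. Other probes detected on all 4 arrays gave Irgm1 0.13 in CD43- and 0.50 in CD43+ cells, Gbp3 -0.11 in CD43- cells and Usp18 -0.26 in CD43+ cells, and Oasl2 was below 0 in both fractions in the authors' deposited RMA values. The limma model called 0 of 27 members for genotype at an adjusted p of 0.05, where it called 0.0221% of all 9058 genes as higher in dKO and 0.0% as lower. It did not call the targeted gene Btg1 either, which lay at -1.71 in CD43+ and -1.44 in CD43- cells. A missing genotype call therefore does not show that a gene was unchanged. At an unadjusted p under 0.05 it listed 5 members as higher (Ifit2, Ifit3, Rsad2, Usp18 and Trim30) and 0 as lower, beside 866 and 737 of all genes.

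The largest fitted genotype difference among the members was that of Ifit2, 0.92 with an SE of 0.19 (adjusted p = 0.184, limma, higher in 2 of 2 fractions). Rsad2 followed with 0.74 and an SE of 0.156 (adjusted p = 0.186, limma, higher in 2 of 2 fractions). Leaving the background uncorrected brought Ifit2, Usp18, Rsad2 and Trim30 past the threshold, together with 470 genes of the whole table, and an offset of 50 brought Ifit2 past it, with 191 genes of the whole table. The genotype calls therefore change with the background correction and offset.

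**Figure D3:**
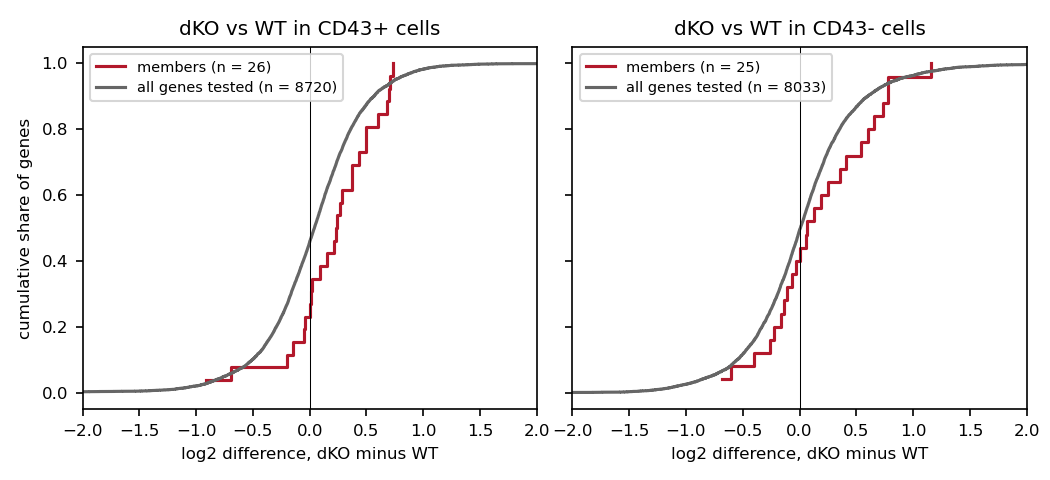
Cumulative share of genes (y axis) by log2 difference between dKO and WT (x axis) for tested members and for all tested genes, in CD43+ cells (left) and CD43- cells (right). The members' curve crosses the middle at 0.24 in CD43+ cells and 0.07 in CD43- cells, against 0.04 and 0.01 for all genes.

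Markers of other marrow cells differed in the same comparisons, none of them called by the limma model for genotype, and their part in the differences above was not tested. In bulk samples fewer cells of a type and less RNA per cell cannot be told apart. In CD43+ cells, 10 of 11 tested neutrophil markers were at least 2-fold lower in dKO, with a summed signal of 10043.2 against 31510.0 in WT, and 9 of 9 tested NK-cell markers were above 0, with a summed signal of 18851.2 in dKO against 11510.6 in WT. In CD43- cells, 4 of 7 tested markers of plasmacytoid dendritic cells (pDCs), the main producers of type I interferon, were at least 2-fold higher in dKO. They were Siglech (7.72-fold), Klk1 (5.35-fold), Cox6a2 (2.85-fold) and Pacsin1 (2.71-fold, but a log2 difference of -0.02 in the authors' deposited RMA values). The summed pDC signal was 28833.7 in dKO against 20135.0 in WT. Most of it came from Ly6d (17335.9 in dKO and 14860.0 in WT), which lay at a log2 difference of 0.085. The pDC receptor gene Siglech had a signal of 1175.8 in dKO CD43- cells and 228.4 in WT CD43- cells. The rise was not limited to pDC markers. In CD43- cells 2 of 4 tested T-cell markers passed 2-fold upward in dKO (Cd8b1, 4.85-fold, and Lat, at least 1.22-fold by its lower bound). Of 3 tested NK-cell markers, 1 did (Klrd1, 3.79-fold), and Nkg7 lay at -0.59. In CD43+ cells the macrophage-list gene Lyz2 was 5.89-fold lower in dKO. In each CD43- sample 7 of 10 measured pDC markers and 3 of 10 NK-cell markers were detected, and in each CD43+ sample 9 of 10 of both lists.

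The second pair of comparisons set later against earlier B-lineage stages, CD43- against CD43+ cells, within each genotype. Some members differed several-fold, in opposite directions. Of 25 members tested in both genotypes, 3 (Ddx58, Samd9l and Oas2) differed by 2-fold upward in CD43- cells of both, against 4.3% of all genes, and 2 (Usp18 and Oasl2) by 2-fold downward in both, against 8.4%. The Oas2 count uses CD43+ values that were not detected, and its lower bound is under 2-fold. In dKO, 3 of 25 tested members passed 2-fold upward and 2 passed it downward, against 6.06% and 10.5% of all genes. In WT, 5 of 27 passed it upward and 4 downward, against 7.82% and 11.1% of all genes. Differences above 0 were found for 11 of 25 members in dKO and 11 of 27 in WT, against 54.2% (dKO) and 54.0% (WT) of all genes. The median log2 difference was -0.20 in dKO and -0.08 in WT, against 0.05 (dKO) and 0.06 (WT) over all genes, and in the authors' deposited RMA values the WT median was 0.066.

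The limma model called 10 of 27 members for fraction at an adjusted p of 0.05. In CD43- cells 5 rose (Ddx58, Samd9l, Oas2, Ifit3 and Rsad2), as did 10% of all genes (909 of 9058), and 5 fell (Usp18, Oasl2, Ifit2, Stat2 and Trim30), as did 12.7% of all genes. Every one of the 10 had the same direction in 2 of 2 genotypes. The residual of the model is the disagreement between the genotypes, so this is largely built into a call and is not separate support. With the authors' deposited RMA values the model called 4 of them (Oas2, Oasl2, Usp18 and Ddx58), so the calls of Ifit2, Ifit3, Rsad2, Stat2, Samd9l and Trim30 were lost. The RMA differences of these genes kept their direction in both genotypes, with Samd9l, for example, at 1.05 in dKO and 1.73 in WT. Calls over all genes fell as well, from 2061 to 931.

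Among the genes lower in CD43- cells, Usp18 showed the largest difference. Its signals were 593.6 in dKO CD43- and 344.1 in WT CD43- cells, against 2107.8 in dKO CD43+ and 1167.3 in WT CD43+ cells. It was 3.97-fold lower in CD43- cells of dKO and 4.69-fold lower in WT, the fitted difference was -2.11 (SE 0.165, adjusted p = 0.00384, limma), and the dimmer probe had signals of 196.8 and 177.6 in dKO and WT CD43- cells against 372.0 and 345.0 in dKO and WT CD43+ cells. Both CD43+ samples thus lay above both CD43- samples on each probe.

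Oasl2, one of the catalytically active OAS-like proteins, had signals of 356.4 in dKO CD43- and 248.5 in WT CD43- cells, against 678.5 in dKO CD43+ and 523.7 in WT CD43+ cells. It was 2.17-fold lower in dKO and 3.14-fold lower in WT (fitted -1.39, SE 0.199, adjusted p = 0.0136, limma). Stat2, the STAT subunit specific to type I and III interferon signalling, had signals of 333.0 in dKO CD43- and 261.8 in WT CD43- cells, against 544.6 in dKO CD43+ and 428.7 in WT CD43+ cells. It was 1.83-fold lower in dKO and 2.16-fold lower in WT (fitted -0.99, SE 0.164, adjusted p = 0.02, limma). For Oasl2 and Stat2 the CD43+ signals lay above both CD43- signals.

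Ifit2 was 1.70-fold lower in CD43- cells of dKO and 2.36-fold lower in those of WT (SE of the fitted difference 0.19, adjusted p = 0.0278, limma). Its signal in dKO CD43- cells, 403.4, lay close to that in WT CD43+ cells, 363.8, and their normalized values, 7.99 and 8.08 on the log2 scale, differed by less than the bead SE of its listed differences. Mx2 had signals of 240.3 in dKO CD43- and 243.9 in WT CD43- cells, against 345.2 in dKO CD43+ and 256.8 in WT CD43+ cells. It was 1.73-fold lower in CD43- cells of dKO and lay at -0.02 in WT (adjusted p = 0.269, limma). Mx2 thus differed between fractions by more than its bead SE in dKO only, and whether the genotypes differ in this was not tested.

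Among the genes higher in CD43- cells, Ddx58 had signals of 418.7 in dKO CD43- and 397.3 in WT CD43- cells, against 232.8 in dKO CD43+ and 197.2 in WT CD43+ cells. It was 3.01-fold higher in dKO and 4.23-fold higher in WT (fitted 1.83, SE 0.193, adjusted p = 0.00653, limma). Among genes of related sensors, Dhx58 lay at -0.08 in dKO and -0.13 in WT, and Ifih1 was not detected. Samd9l had signals of 5982.2 in dKO CD43- and 7821.4 in WT CD43- cells, against 3099.3 in dKO CD43+ and 2360.0 in WT CD43+ cells. It was 2.07-fold higher in dKO and 3.32-fold higher in WT (fitted 1.39, SE 0.223, adjusted p = 0.0182, limma).

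Oas2, encoding a synthase of the second messenger that activates RNase L, was detected in CD43- cells only. Its signals were 193.9 in dKO CD43- and 185.3 in WT CD43- cells, against 145.0 in dKO CD43+ and 153.1 in WT CD43+ cells, which were not above background. It was at least 1.59-fold higher in dKO and at least 1.74-fold higher in WT, and the adjusted p of 0.00971 (limma) uses CD43+ values below detection. Ifit3 was 1.68-fold higher in dKO, with signals of 431.4 in CD43- and 324.3 in CD43+ cells. In WT it was 2.10-fold higher, with signals of 302.5 in CD43- and 218.2 in CD43+ cells (fitted 0.91, SE 0.173, adjusted p = 0.028, limma). Rsad2 was 1.86-fold higher in dKO and 1.77-fold higher in WT (fitted 0.86, SE 0.156, adjusted p = 0.0251, limma). Ifit2 and Ifit3, members of one gene family, thus had differences of opposite sign, Ifit2 lower and Ifit3 higher in CD43- cells, in calls that the RMA values did not give.

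**Figure D4:**
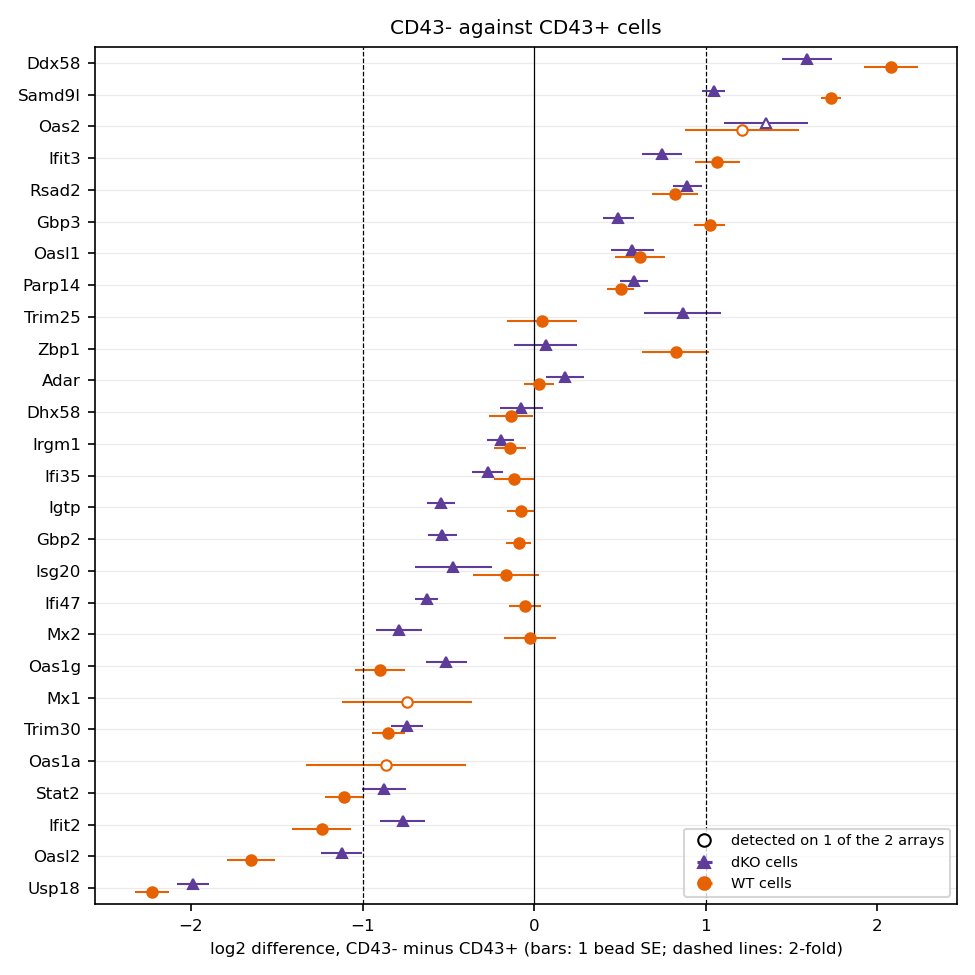
Log2 difference of each tested member between CD43- and CD43+ cells (x axis) in dKO (triangles) and WT (circles), with bars of 1 bead SE, dashed lines at 2-fold and open symbols where a member was detected on 1 of the 2 arrays. Ddx58 and Samd9l lie past 2-fold on the higher side, and Oasl2 and Usp18 past 2-fold on the lower side, in both genotypes.

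The other OAS genes had no called difference between fractions. Oas1g lay at -0.51 in dKO and -0.90 in WT (adjusted p = 0.0553, limma), and its other detected probe lay at 0.05 in dKO and 0.18 in WT, so its direction depends on the probe. Oasl1, which in mouse restrains translation of IRF7 mRNA, lay at 0.57 in dKO and 0.62 in WT (adjusted p = 0.0582, limma). Oas1a and Mx1 were detected in WT CD43+ cells only, with signals of 166.8 (Oas1a) and 169.8 (Mx1) there, and their fold in WT has no bound above 1. Of 5 tested GTPases none passed 2-fold in dKO, and in WT Gbp3 was 2.03-fold higher in CD43- cells, with an adjusted p of 0.059 (limma) over both genotypes. Parp14 lay at 0.58 in dKO and 0.51 in WT (adjusted p = 0.0713, limma). Trim30 lay at -0.74 in dKO and -0.85 in WT (adjusted p = 0.03, limma).

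The 5 members that fell in CD43- cells lay beside markers of other cells that fell there too, and the part of those cells in these results was not tested. Of 9 tested pDC markers, the fit called 8 as lower in CD43- cells. Siglech, for example, was 13.7-fold lower in dKO and 110-fold lower in WT. Summed pDC signals were 28833.7 in dKO CD43- and 20135.0 in WT CD43- cells, against 83830.1 in dKO CD43+ and 58666.9 in WT CD43+ cells. Ly6d, the marker not called, lay at 0.12 in dKO and 0.73 in WT. It gave most of the CD43- sums, 17335.9 in dKO and 14860.0 in WT, so the sums understate the fall of the other markers. The fit also called 8 of 9 NK-cell and 8 of 8 T-cell markers as lower, while 9 of 12 B-lineage markers were called higher and 2 (Vpreb1 and Dntt, of early stages) lower. Beside the 5 members that rose in CD43- cells, the fit called 5 of 6 erythroid markers and the macrophage markers C1qb and C1qc as higher there. Summed erythroid signals were 25166.2 in dKO CD43- and 25524.2 in WT CD43- cells, against 8900.4 in dKO CD43+ and 11477.9 in WT CD43+ cells, and the part of these cells was not tested either.

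The promoters of members on both sides of this split are shown so that the ISRE can be looked for in them. The windows run from 250 bases before to 50 after the annotated start, in the direction of the gene, from RefSeq (GRCm38.p6), and capitals mark matches to the ISRE core, here TTTC and TTTC with any 2 bases between, or its reverse complement. The first 4 genes were higher in CD43- cells.

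Ifit3, chr19:34583279-34583578, plus strand: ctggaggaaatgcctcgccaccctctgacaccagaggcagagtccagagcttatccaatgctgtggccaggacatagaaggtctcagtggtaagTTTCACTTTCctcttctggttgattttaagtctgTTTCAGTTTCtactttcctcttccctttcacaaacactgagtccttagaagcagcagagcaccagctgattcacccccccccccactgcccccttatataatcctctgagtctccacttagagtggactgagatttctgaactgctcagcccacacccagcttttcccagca
Rsad2, chr12:26456403-26456702, minus strand: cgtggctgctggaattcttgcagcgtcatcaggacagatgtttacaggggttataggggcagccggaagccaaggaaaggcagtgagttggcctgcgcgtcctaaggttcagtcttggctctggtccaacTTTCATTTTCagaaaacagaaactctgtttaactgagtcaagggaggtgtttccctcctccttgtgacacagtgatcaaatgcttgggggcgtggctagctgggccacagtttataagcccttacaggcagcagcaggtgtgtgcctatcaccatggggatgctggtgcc
Ddx58, chr4:40239776-40240075, minus strand: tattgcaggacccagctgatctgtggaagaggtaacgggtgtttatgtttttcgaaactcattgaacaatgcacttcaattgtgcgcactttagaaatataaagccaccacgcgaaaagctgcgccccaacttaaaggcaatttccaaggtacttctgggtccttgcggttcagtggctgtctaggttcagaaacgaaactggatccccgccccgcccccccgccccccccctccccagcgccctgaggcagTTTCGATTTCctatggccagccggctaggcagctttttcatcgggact
Samd9l, chr6:3399522-3399821, minus strand: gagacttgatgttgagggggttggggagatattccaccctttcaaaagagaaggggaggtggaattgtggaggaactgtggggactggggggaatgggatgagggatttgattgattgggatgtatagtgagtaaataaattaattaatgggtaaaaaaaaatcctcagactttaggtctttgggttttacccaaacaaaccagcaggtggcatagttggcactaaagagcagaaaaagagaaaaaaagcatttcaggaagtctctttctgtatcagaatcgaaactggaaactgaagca

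The next 4 genes were lower in CD43- cells. Usp18 and Oas2 have no window in the table used. Ifit2 has a second window, which holds no match either, and Trim30 (Trim30a in RefSeq) has a second, which holds 1 match.

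Stat2, chr10:128270248-128270547, plus strand: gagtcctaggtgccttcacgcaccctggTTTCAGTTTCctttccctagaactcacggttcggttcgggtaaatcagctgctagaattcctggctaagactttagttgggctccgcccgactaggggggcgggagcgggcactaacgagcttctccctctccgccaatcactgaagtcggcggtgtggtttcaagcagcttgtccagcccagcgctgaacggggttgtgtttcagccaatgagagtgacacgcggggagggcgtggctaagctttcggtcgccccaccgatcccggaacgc
Ifit2, chr19:34550444-34550743, plus strand: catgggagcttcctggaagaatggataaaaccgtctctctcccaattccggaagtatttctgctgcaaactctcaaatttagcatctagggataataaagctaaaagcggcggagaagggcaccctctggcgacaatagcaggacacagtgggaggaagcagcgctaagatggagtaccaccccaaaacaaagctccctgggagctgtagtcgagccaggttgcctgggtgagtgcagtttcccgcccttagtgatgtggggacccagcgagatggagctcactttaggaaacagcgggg
Oasl2, chr5:114896684-114896983, plus strand: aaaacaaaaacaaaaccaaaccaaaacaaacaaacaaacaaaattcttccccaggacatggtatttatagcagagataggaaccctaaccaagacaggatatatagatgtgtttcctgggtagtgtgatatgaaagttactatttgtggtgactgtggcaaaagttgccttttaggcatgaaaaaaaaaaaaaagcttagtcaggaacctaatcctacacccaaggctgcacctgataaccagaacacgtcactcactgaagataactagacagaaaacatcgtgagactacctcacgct
Trim30, chr7:104465144-104465443, minus strand: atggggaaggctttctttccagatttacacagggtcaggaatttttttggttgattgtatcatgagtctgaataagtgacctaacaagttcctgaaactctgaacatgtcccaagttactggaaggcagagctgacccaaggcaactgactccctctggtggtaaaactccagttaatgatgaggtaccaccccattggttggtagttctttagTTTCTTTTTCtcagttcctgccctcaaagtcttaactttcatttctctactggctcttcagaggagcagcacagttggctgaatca

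Matches to the ISRE core thus occurred in promoters on both sides of the split. Ifit3 holds 2 of them, TTTCACTTTC and TTTCAGTTTC, Rsad2 holds TTTCATTTTC, Ddx58 holds TTTCGATTTC, Stat2 holds TTTCAGTTTC and the Trim30 window shown holds TTTCTTTTTC. Over the list, 27 of 36 members had at least 1 window, and 15 of these 27 (55.6%) held the core on either strand, against 3.99% of 27025 genes in the table. Matches on the 2 strands may overlap. The GAS core TTCNNNGAA, which reads the same on both strands, was in windows of 6 of 27 members (22.2%) and of 9.55% of all genes. A match is a description of letters and not a bound site.

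Other genes of the interferon pathway were read from lists. Of the receptor and JAK-STAT genes, 0 of 13 passed the test for genotype, 1 rose in CD43- cells (Socs1, not detected in CD43+ cells) and 1 fell (Ifnar2), where the fit called 10% of all genes as higher and 12.7% as lower. Ifnar2, the signalling chain of the type I receptor, had signals of 439.8 in dKO CD43- and 348.4 in WT CD43- cells, against 1199.2 in dKO CD43+ and 803.2 in WT CD43+ cells. It was 3.18-fold lower in CD43- cells of dKO and 3.06-fold lower in those of WT (adjusted p = 0.00554, limma), and Ifnar1 was not detected on any array. Socs3, an inhibitor of JAK signalling, was 2.11-fold higher in dKO CD43- than in WT CD43- cells and lay at -0.10 in CD43+ cells.

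Of the genes of sensing and interferon induction, 0 of 12 passed the test for genotype, 1 rose (Traf3) and 4 fell (Tlr7, Ikbke, Irf7 and Ifng, the last not detected in CD43- cells), against the same 10% and 12.7% of all genes. Irf7, the amplifier of type I interferon induction and itself induced by interferon, had signals of 251.8 in dKO CD43- and 179.2 in WT CD43- cells, against 776.4 in dKO CD43+ and 665.7 in WT CD43+ cells. It was 4.65-fold lower in CD43- cells of dKO and 9.86-fold lower in those of WT (adjusted p = 0.00691, limma), the same direction as Usp18 and Stat2.

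Of the other interferon-induced genes, 0 of 21 passed the test for genotype, and 0 rose and 6 fell in CD43- cells (Bst2, Ifitm2, Ifitm3, Parp12, Lgals3bp and Gbp6), against 10% and 12.7% of all genes. Parp12 was not detected in CD43- cells and was at least 1.05-fold lower there in dKO and at least 1.06-fold lower in WT. Sp100, a component of nuclear bodies, was 2.06-fold higher in dKO CD43+ than in WT CD43+ cells and lay at -0.38 in CD43- cells. Lgals3bp, encoding a secreted galectin-binding glycoprotein, was 2.12-fold higher in dKO CD43- than in WT CD43- cells (adjusted p = 0.26, limma). Both Lgals3bp and Bst2, which encodes tetherin and is also on the pDC list, fell in CD43- cells, Bst2 being 9.05-fold lower in dKO and 10.3-fold lower in WT (adjusted p = 0.00227, limma).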

How the data were processed

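RNA of 4 sorted bone marrow samples was hybridised to Illumina MouseRef-8 BeadChips and grouped by sample title. Per the file headers, the authors deposited a GenomeStudio 1.9.0 export without normalization: a mean bead intensity per probe, the SD of the bead signal, the count of beads (median 38 to 39) and a detection score, a fraction whose complement was used as the detection p. The authors' second table holds RMA values on a log2 scale from ArrayStar, per the file headers, and the series matrix repeats them (medians of 3.77, 3.77, 3.79 and 3.78 for dKO CD43-, WT CD43-, dKO CD43+ and WT CD43+).

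The neqc function (limma 3.58.1 under R 4.3.3) corrected the background from detection p-values, added an offset of 16 and normalized by quantiles. The brightest probe stood for a gene, and 13 members had several. Comparisons covered genes detected on at least 1 of their 2 arrays. With 1 detected, the fold is a lower bound, in which the undetected value is raised to the dimmest detected gene on its array where it lies below that. The bead SE is the bead SD over the square root of the bead count, relative to the corrected signal. Members named by rule were those past 2-fold between genotypes, those with genotype differences of opposite sign in the fractions, each over 2 bead SEs and at least 1 log2 unit apart (0 members), and the 4 largest per direction and genotype between fractions; other role examples were added after their values were seen. Members and lists were chosen with earlier results of these data known. The counting and the fit were tested on simulated data. Older gene names were matched through RefSeq synonyms (GRCm38.p6). Alternatives were no background correction, an offset of 50, median scaling, the RMA values, a detection p of 0.05 and the mean over detected probes.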

Additional observations from a re-analysis of the deposited data

Results flagged for a closer look

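A row of the probe table outside the matched names carried signal. Tyki is an older name of Cmpk2 in RefSeq, a mitochondrial nucleotide kinase gene that neighbours Rsad2 and is on the list of 36, but its row did not match by name. Its signals were 738.7 in dKO CD43+ and 349.3 in WT CD43+ cells, a log2 difference of 1.04 (bead SE 0.112, 2.05-fold higher in dKO). They were 1081.1 in dKO CD43- and 683.9 in WT CD43- cells, a difference of 0.41 (bead SE 0.098). The limma model gave a genotype difference of 0.72 (SE 0.213, adjusted p = 0.231, higher in 2 of 2 fractions) and a fraction difference, CD43- minus CD43+, of 1.04 (SE 0.213, adjusted p = 0.0331, higher in 2 of 2 genotypes). Rsad2 had the same direction in all 4 comparisons. Groups of 1 array allow no search for outlying samples.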

How the results depend on the processing

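No paired analysis was possible because each group holds 1 array and the labels give no replicate numbers. Of 84 recomputed values for 14 results, 66 stayed within tolerance (counts within 1.5 times, medians within the median bead SE of the members), 17 moved beyond it and 1 reversed. The reversed value was the median difference of members between CD43- and CD43+ cells in WT, 0.066 in the authors' RMA values against -0.08. In dKO that median was -0.0438 in RMA and -0.0762 with the mean over detected probes, against -0.20. Median scaling moved the median of all genes to 0.32 (CD43+) and 0.25 (CD43-) between dKO and WT, and that of the members to 0.52 and 0.32, so the members exceeded all genes by 0.20 and 0.07, against 0.19 and 0.06 with quantile normalization. It put 1 member (Ifi47) at 2-fold higher in dKO CD43+ cells and 3 (Ifit2, Rsad2 and Trim25) in dKO CD43- cells. Without background correction, or with an offset of 50, 0 members were 2-fold higher in dKO CD43- cells. RMA put 2 members (Mx1 and Oas1a, both near background) at 2-fold lower in dKO CD43+ cells. Without background correction the counts of members at least 2-fold higher in CD43- cells were 1 in dKO and 2 in WT, and lower 1 in dKO and 2 in WT; an offset of 50 gave 2 higher in WT. The limma model called 4 members for genotype without background correction and 1 with an offset of 50, against 0, and 4 for fraction in RMA (Oas2, Oasl2, Usp18 and Ddx58), against 10. The cause was not tested. Over all genes, the counts at least 2-fold higher and lower in dKO CD43+ cells were 150 and 177, against 11 and 39 without background correction, 39 and 78 with an offset of 50, 403 and 119 with median scaling and 387 and 362 in RMA. In dKO CD43- cells they were 294 and 206, against 50 and 34, 116 and 60, 477 and 93, and 391 and 333 in the same order. Without background correction 249 genes were 2-fold higher and 427 lower in CD43- than in CD43+ cells of WT, against 675 and 959, and 208 and 390 in dKO, against 520 and 905; an offset of 50 gave 391 higher in WT and 338 in dKO. For fraction the model called 931 genes in RMA, against 2061. Signals near background limit the differences of Mx1, Oas1a and Oas2, and that of Ifna1 outside the members.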
